A study of Mus musculus with 14 samples.

Results

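The genes described here are 38 genes for proteoglycans, matrix glycoproteins and the enzymes that assemble them, together with a few markers of fibroblasts. They were chosen by name, with earlier results of these data known. All 38 were among the 18481 genes of the deposited table, and all 38 reached the level needed for testing, as did 15841 genes in all. They were followed in 14 whole tumours of SMM102, a mouse melanoma cell line, which grew from subcutaneous injections (2 per mouse) in female C57BL/6J animals aged 6 to 8 weeks. Dosing began at tumour volumes of 150 to 300 mm3, and PLX4032, the BRAF inhibitor vemurafenib, was given intraperitoneally (50 mg/kg, 5 days each week). Tumours under treatment numbered 2 at day 3, 2 at day 6, 2 at day 18 and 4 at day 27, and there were 2 controls at day 3 and 2 at day 6. Controls are untreated according to the sample labels, whereas the design text of the series gives them vehicle. No control was taken after day 6, so on days 18 and 27 treatment and elapsed time cannot be told apart. The 4 tumours of day 27 are the left and right tumours of 2 mice, and the table does not say which column belongs to which mouse, so p-values that involve day 27 are too small.

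Fibroblasts build the collagen scaffold of connective tissue and dress it with these proteins. Small leucine-rich proteoglycans such as lumican and decorin sit on collagen fibrils and govern their spacing and width, fibulins and fibrillin carry elastic fibres, lysyl oxidases crosslink collagen and elastin, and matricellular proteins such as periostin and tenascins signal to cells rather than bear load. Versican and hyaluronan form a hydrated, loose matrix between cells. In tumours such genes can be transcribed by host fibroblasts and also by the tumour cells themselves, above all by melanoma cells that have lost pigment cell traits.

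The values are a deposited expression signal per gene on a per-million, per-length scale (totals of 879385 to 1084401). How many reads lie behind a tumour is unknown. Changes are differences of log2(value + 1) with a standard error (SE) from limma, and a gene counts as changed at a Benjamini-Hochberg adjusted p under 0.05 over all 15841 genes. At low values this scale understates a change. Group levels are given as mean ± SD of the deposited signal. In bulk tumours fewer cells of a type and less RNA per cell cannot be told apart, and host and tumour transcripts are both mouse. Pigment cell genes were scarce: of 10 melanocyte genes 4 were listed, their summed signal was 3.52 to 12.2, and Tyr, Tyrp1, Dct and Mlana were among the 6 that were not listed. Of 4 Y-linked genes 3 were listed, and they gave a summed signal of 14.3 to 46.8 in all 14 tumours although the hosts are labelled female. The Y-linked sum was 30.7 to 44.7 in the controls, 20.3 to 22.8 on treated day 3 and 14.3 to 25.0 on treated day 6. It was 22.5 to 42.2 on day 18 and 22.6 to 46.8 on day 27.

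The 38 genes varied widely between tumours. The range of log2(value + 1) from the lowest to the highest tumour had a median of 2.25, against 1.01 for all genes tested. This scale narrows the range of genes at low values, and the 2 sets were not matched for level. Day 3 and day 18 held most of the highest means and day 27 the largest number of lowest means. For day 3 the share of highest means was near that of all genes. The group mean was highest on treated day 3 for 14 of the 38 genes (36.8%, against 33.8% of all genes) and on day 18 for 12 (31.6%, against 21.2%). It was lowest on day 27 for 16 (42.1%, against 18.1%), and lowest on treated day 3 for 5 (13.2%, against 32.5%).

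**Figure D1:**
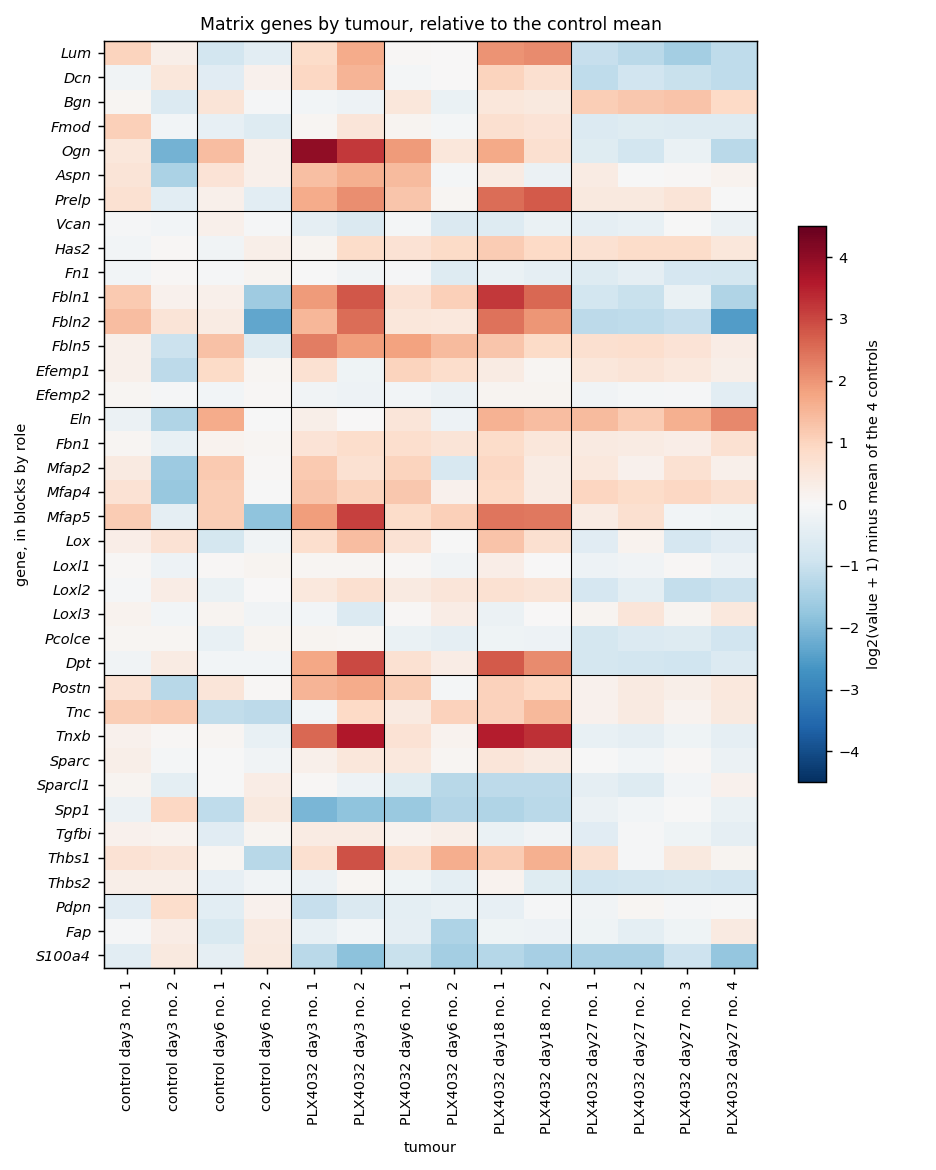
Each row is 1 of the 38 genes, ordered by role, and each column is 1 of the 14 tumours; colour gives log2(value + 1) minus the mean of the 4 controls. Tnxb, Dpt, Fbln1, Fbln2, Prelp and Mfap5 are high in the tumours of treated days 3 and 18 and near or below the controls on day 27, while Spp1 and S100a4 are below the controls on day 3.

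On day 3, 16 of the 38 genes rose against the controls and 4 fell, with a median change of 0.43 against 0.02 for all genes tested. Of all genes 45.8% changed in this comparison, 24.9% higher and 20.8% lower. Without the second treated tumour of day 3 the count was 10, and against the day 3 controls alone it was 13. On day 6 a single gene, Fbn1, rose and 0 fell, where 5.92% of all genes changed (4.49% higher and 1.43% lower). The median change was 0.25 against 0.01, 11 of the 38 genes had an unadjusted p under 0.05 (3584 of all 15841), and the count went from 0 to 8 when 1 tumour was left out. It was 8 without the first control of day 6, 5 without the first control of day 3, and 0 without the second control of either day or without the second treated tumour of day 6. On day 18, 8 genes rose and 2 fell, where 7.92% of all genes changed (5.42% higher and 2.50% lower), and the median was 0.65 against 0.07. The count was 4 without the first tumour of day 18, 5 without the second, 4 with only the compared groups in the fit and 16 with sample weights. On day 27, 3 genes rose and 7 fell, where 6.67% of all genes changed (3.58% higher and 3.09% lower), and the median was -0.16 against 0.01. Averaging the day 27 tumours in the 3 possible pairs left 1, 2 and 2 of these calls.

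The treated days were compared with each other as well. Days 18 and 27 against days 3 and 6 had 3 genes higher and 6 lower, where 40.0% of all genes changed (20.6% higher and 19.4% lower), and the median change was -0.21 against 0.01. Without the second tumour of day 18 the count was 5. Day 27 against day 18, a comparison added after the values were seen, had 1 gene higher and 14 lower, where 10.0% of all genes changed (3.19% higher and 6.86% lower). The median was -0.38 against -0.06. The count was 7 without the first day 18 tumour, 9 without the second, and 8 in each of the 3 pairings. Between the control days limma called 0 of the 38 genes, and 0% of all genes. An unadjusted p under 0.05 was found for 9 of the 38 and for 886 of all genes. All comparisons with the controls share the same 4 control tumours, so the days are set side by side and not tested against one another through them.

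**Figure D2:**
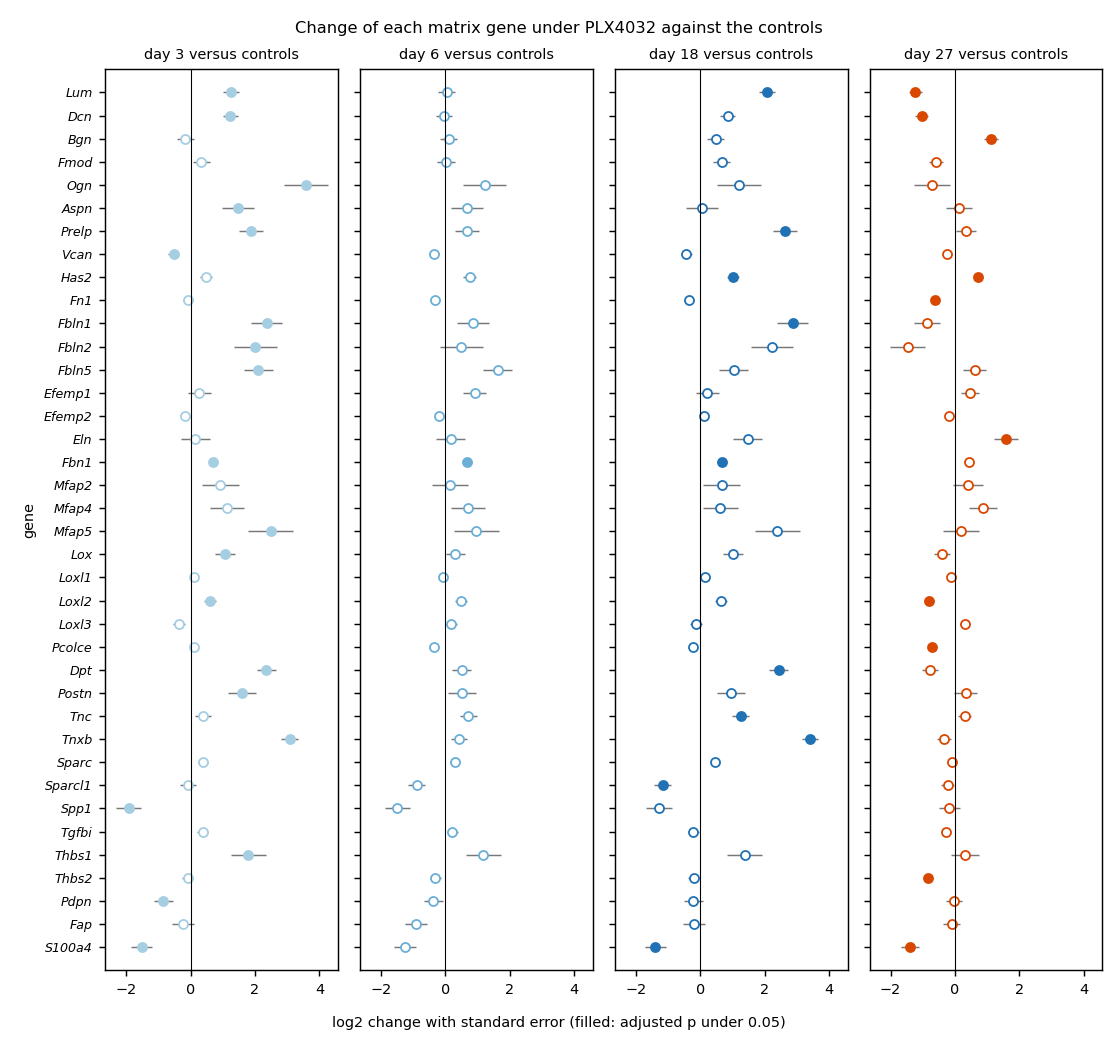
Log2 change with its SE for each of the 38 genes in each treated group against the mean of the control groups; filled points are genes with an adjusted p under 0.05. The points of day 3 and day 18 reach above 3 log2 units for Tnxb (3.08 and 3.41), and those of day 27 lie between -1.47 and 1.58.

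Among the small leucine-rich proteoglycans, Lum, Dcn, Ogn, Aspn and Prelp rose on day 3, which is 5 of 7 genes, where 24.9% of all genes rose. On day 18 Lum and Prelp rose, and on day 27 Lum and Dcn fell while Bgn rose. No member of the family was called on day 6. Against day 18, 4 of the 7 (Lum, Dcn, Prelp and Fmod) were lower on day 27, where 6.86% of all genes were lower.

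Lum encodes lumican, a keratan sulphate proteoglycan of collagen fibrils, at chromosome 10, 97565128 to 97572703 on GRCm38. The controls gave 32.1 and 19.1 on day 3 and 8.45 and 11.1 on day 6. Lum under PLX4032 was 28.2 and 52.0 on day 3, 16.3 and 15.6 on day 6, 65.8 and 71.3 on day 18, and 7.10, 6.08, 4.73 and 6.48 on day 27. Both tumours of day 18 lay above every control and all 4 of day 27 below every control, while day 3 overlapped with the controls. Its log2 change was 1.24 (SE 0.25, adjusted p = 0.00259) on day 3, 2.07 (SE 0.25, adjusted p = 0.000919) on day 18 and -1.24 (SE 0.21, adjusted p = 0.00751) on day 27. From day 18 to day 27 the mean dropped from 68.5 ± 3.86 (SD, n = 2) to 6.10 ± 1.00 (SD, n = 4), which is -3.30 on the log2 scale (SE 0.25, adjusted p = 2.41e-05). The fall on day 27 against the controls was not called in any of the 3 pairings of the day 27 tumours.

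Dcn encodes decorin, which binds collagen and sequesters growth factors. It lies on the same chromosome, 97479609 to 97518143, with 47.0 kb between it and Lum. Dcn measured 205 and 332 in the controls of day 3 and 160.5 and 263 in those of day 6. Dcn under PLX4032 was 440.4 and 678 on day 3, 217 and 232 on day 6, 459.6 and 382 on day 18, and 104, 127, 116 and 103 on day 27. Days 3 and 18 lay wholly above the controls, day 27 wholly below, and day 6 among them. The log2 change was 1.23 (SE 0.24, adjusted p = 0.00209) on day 3, 0.85 (adjusted p = 0.0556, not called) on day 18 and -1.04 (SE 0.20, adjusted p = 0.0127) on day 27, and the last was not called in any of the 3 pairings. Day 27 was lower than day 18 by a log2 change of -1.89 (SE 0.24, adjusted p = 0.000832).

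Bgn, for biglycan, the closest relative of decorin and a gene of the X chromosome (73483602 to 73495933), went the other way. Its controls were 1351 and 819 on day 3 and 1897 and 1212 on day 6. Bgn under PLX4032 was 1172 and 1069 on day 3, 1783 and 1020.1 on day 6, 1799 and 1713 on day 18, and 2731, 2954, 3045 and 2349 on day 27. Only the day 27 tumours all exceeded the highest control. The log2 change there was 1.13 (SE 0.21, adjusted p = 0.0129), which was not called in any of the 3 pairings. Bgn had the third highest mean signal of the 38 genes, and the family's summed signal was highest on day 27 (2497 to 3208, against 1184 to 2142 in the controls) while Lum and Dcn had their lowest means there.

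Ogn encodes osteoglycin (mimecan), a leucine-rich proteoglycan of connective tissue. Controls were 14.3 and 1.49 on day 3 and 27.8 and 11.8 on day 6. Ogn under PLX4032 was 171 and 97.0 on day 3, 40.0 and 14.6 on day 6, 34.3 and 16.7 on day 18, and 6.43, 5.20, 7.92 and 3.65 on day 27. Day 3 stood above all controls and every other day overlapped with them. The mean on day 3 was 134 ± 52.6 (SD, n = 2) against 13.8 ± 10.8 (SD, n = 4) in the controls, and the fitted log2 change was 3.58 (SE 0.67, adjusted p = 0.0017). On the log2(value + 1) scale this was the largest change of the 38 genes on day 3, while by ratio of means Tnxb (24.2 times) exceeded Ogn (9.70 times). The day 18 change of Ogn was not called (1.20), and days 18 and 27 were lower than days 3 and 6 by -2.16 log2 units (SE 0.51, adjusted p = 0.00767).

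Prelp, which anchors basement membranes to connective tissue, had a mean of 2.51 ± 1.41 (SD, n = 4) in the controls, 11.4 ± 2.73 (SD, n = 2) on day 3 and 19.8 ± 2.45 (SD, n = 2) on day 18. Its log2 change was 1.88 (SE 0.38, adjusted p = 0.00233) on day 3 and 2.64 (SE 0.38, adjusted p = 0.00236) on day 18, and day 27 was lower than day 18 by -2.29 (SE 0.38, adjusted p = 0.00413). Aspn, which encodes asporin, rose on day 3 with 75.9 and 91.0 against 10.3 to 45.0 in the controls, a log2 change of 1.47 (SE 0.50, adjusted p = 0.0333). The call for Aspn was lost in 8 of 19 alternatives. Fmod, for fibromodulin, was the scarcest of the 38 genes, with at most 2.25 and a listed 0 in 1 tumour of day 27. It was 1.54 and 1.37 on day 18 and at most 0.0644 on day 27, with a log2 change of -1.25 (SE 0.27, adjusted p = 0.0184) between them. At these low values the change depended on the pseudocount, from -3.57 with 0.1 to -0.36 with 5, and the call was lost in 5 of 17 alternatives: without either tumour of day 18 and in the 3 pairings.

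Several of these genes are neighbours. Prelp and Fmod lie 115.8 kb apart on chromosome 1, and on chromosome 13 Ecm2, Aspn, Omd and Ogn follow each other with gaps of 11.7, 14.9 and 15.2 kb. Ecm2 and Omd, which are further leucine-rich matrix genes of that cluster, were low: Ecm2 was 6.78 and 6.47 on day 3 against 0.775 to 3.26 in the controls, and Omd was 6.21 and 3.09 against 0.376 to 2.01. All 4 genes of the cluster lay above every control in both tumours of day 3. On that day 24.9% of all genes were called higher, and how many of all genes lay wholly above the controls was not counted. Ecm2 and Omd were picked after their values were seen.

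**Figure D3:**
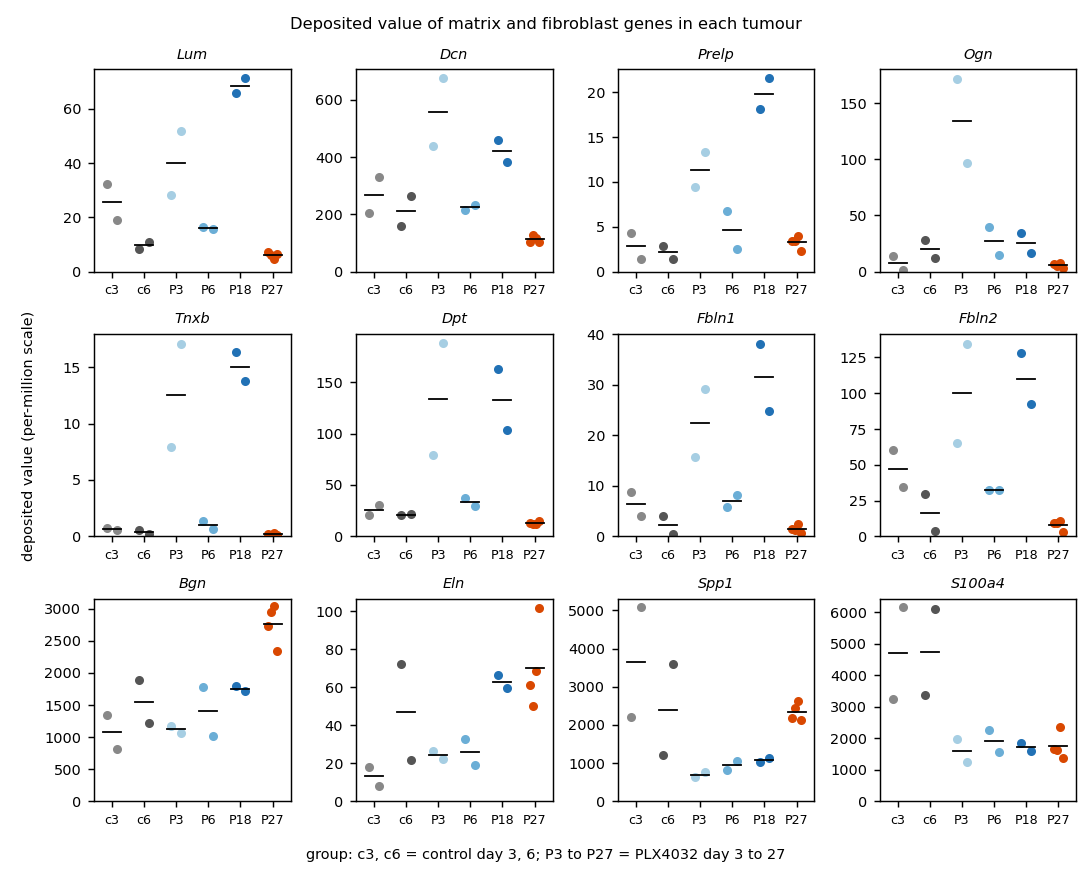
Deposited signal of 12 of the genes in each of the 14 tumours (points) with the group mean (line); c3 and c6 are controls and P3 to P27 treated tumours by day. Lum, Dcn, Prelp, Tnxb, Dpt, Fbln1 and Fbln2 have high points on days 3 and 18 and low ones on day 27, Bgn is highest on day 27, and S100a4 is below every control on all treated days.

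Of the genes of the hyaluronan-rich matrix, Vcan encodes versican, the large chondroitin sulphate proteoglycan that binds hyaluronan, and Has2 the main hyaluronan synthase. Vcan was 118 and 113 in the controls of day 3 and 142 and 116 in those of day 6. Vcan under PLX4032 was 91.5 and 77.4 on day 3, 116 and 78.0 on day 6, 82.0 and 99.0 on day 18, and 91.5, 96.8, 120.3 and 100.4 on day 27. Days 3 and 18 lay below all controls. Vcan fell on day 3 by -0.53 log2 units (SE 0.17, adjusted p = 0.0244) and was not called on the other days. Has2 was 4.58 and 5.37 in the controls of day 3 and 4.48 and 6.33 in those of day 6. Has2 under PLX4032 was 5.77 and 9.79 on day 3, 8.58 and 10.2 on day 6, 12.6 and 10.4 on day 18, and 8.92, 9.96, 9.87 and 7.81 on day 27. From day 6 on every treated tumour exceeded every control. Has2 rose on day 18 by 1.02 (SE 0.20, adjusted p = 0.0137) and on day 27 by 0.72 (SE 0.16, adjusted p = 0.0269) on the log2 scale, and on day 6 its change was 0.75 (adjusted p = 0.0514, not called).

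Among fibronectin and the fibulins, Fbln1, Fbln2 and Fbln5 rose on day 3, which is 3 of 6 genes (24.9% of all genes rose). Fbln1 rose again on day 18, and on day 27 Fn1 fell. Fn1 encodes fibronectin, the adhesive glycoprotein on which other matrix proteins assemble. It was 1247 and 1395 in the controls of day 3 and 1287 and 1452 in those of day 6. Fn1 under PLX4032 was 1324 and 1198 on day 3, 1296 and 892 on day 6, 1081 and 1018 on day 18, and 899, 1014, 801 and 784 on day 27. All tumours of days 18 and 27 lay below all controls. The day 27 change was -0.63 (SE 0.13, adjusted p = 0.0176), which was not called in any of the 3 pairings of the day 27 tumours.

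Fbln1 encodes fibulin 1, a glycoprotein of elastic fibres and basement membranes. Its controls were 8.84 and 4.01 on day 3 and 4.07 and 0.449 on day 6. Fbln1 under PLX4032 was 15.6 and 29.2 on day 3, 5.84 and 8.20 on day 6, 38.2 and 24.9 on day 18, and 1.46, 1.19, 2.53 and 0.715 on day 27. Days 3 and 18 lay above all controls. The log2 change was 2.36 (SE 0.49, adjusted p = 0.00291) on day 3 and 2.87 (SE 0.49, adjusted p = 0.0071) on day 18, and day 27 was lower than day 18 by -3.74 (SE 0.49, adjusted p = 0.001). Fbln2, its close relative, had means of 100.1 ± 49.0 (SD, n = 2) on day 3, 110.2 ± 25.3 (SD, n = 2) on day 18 and 8.15 ± 3.41 (SD, n = 4) on day 27, against 32.0 ± 23.2 (SD, n = 4) in the controls. The day 3 change was called (2.01, SE 0.66, adjusted p = 0.0281), as was the step from day 18 to day 27 (-3.69, SE 0.66, adjusted p = 0.00663), whereas the day 18 change against the controls was 2.22 (adjusted p = 0.0632, not called).

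Fbln5 encodes fibulin 5, which is needed for elastic fibre assembly. It was 24.7 and 10.3 in the controls of day 3 and 53.8 and 13.9 in those of day 6. Fbln5 under PLX4032 was 108 and 80.5 on day 3, 76.4 and 58.5 on day 6, 50.7 and 38.9 on day 18, and 35.4, 36.5, 32.7 and 27.0 on day 27. Days 3 and 6 lay above every control and the later days among them. It rose on day 3 by 2.10 (SE 0.45, adjusted p = 0.00337), had a change of 1.62 (adjusted p = 0.0571, not called) on day 6, and was lower on days 18 and 27 than on days 3 and 6 by -1.03 (SE 0.34, adjusted p = 0.0336), a call lost in 11 of 22 alternatives, the 3 pairings among them. Efemp1, for fibulin 3, overlapped with the controls on every day. It was 251, 93.9, 388 and 229 in the controls, 348 and 189 on day 3, 434 and 375 on day 6, 274 and 227 on day 18, and 305, 323, 300.4 and 260.1 on day 27. Efemp2, for fibulin 4, stayed between 153 and 235 in all 14 tumours and was not called on any day.

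Of the genes of elastic fibres and microfibrils, Eln encodes tropoelastin, the soluble precursor of elastin, and Fbn1 fibrillin 1, the backbone of microfibrils; Mfap2, Mfap4 and Mfap5 are microfibril-associated proteins. Fbn1 was the one gene of the 38 called on day 6, and Eln the one gene of this group called on day 27. Eln was 18.1 and 7.99 in the controls of day 3 and 72.1 and 21.5 in those of day 6. Eln under PLX4032 was 26.5 and 22.4 on day 3, 32.6 and 18.9 on day 6, 66.5 and 59.5 on day 18, and 61.0, 50.3, 68.5 and 102 on day 27. Both late days overlapped with the controls because of the single control of day 6 at 72.1. The log2 change was 1.47 (adjusted p = 0.0707, not called) on day 18 and 1.58 (SE 0.37, adjusted p = 0.0301) on day 27, and days 18 and 27 exceeded days 3 and 6 by 1.38 (SE 0.35, adjusted p = 0.0101).

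Fbn1 was 51.0 and 38.3 in the controls of day 3 and 54.5 and 51.4 in those of day 6. Fbn1 under PLX4032 was 74.1 and 85.4 on day 3, 82.3 and 73.1 on day 6, 87.3 and 69.9 on day 18, and 63.7, 63.5, 59.2 and 79.3 on day 27. It exceeded every control in all 10 treated tumours. The log2 change was 0.71 (SE 0.15, adjusted p = 0.00311) on day 3, 0.67 (SE 0.15, adjusted p = 0.0359) on day 6, 0.68 (SE 0.15, adjusted p = 0.0217) on day 18 and 0.44 (adjusted p = 0.0558, not called) on day 27. An unstranded count of Fbn1 could include an opposite-strand gene, Gm9913, with which it shares 2442 exon bases.

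Mfap4 was 112 and 21.0 in the controls of day 3 and 152 and 69.4 in those of day 6. Mfap4 under PLX4032 was 171 and 143 on day 3, 164 and 81.9 on day 6, 132 and 90.9 on day 18, and 141, 126, 135 and 118 on day 27. It overlapped with the controls on every day and was not called. Mfap2 ranged from 13.9 to 102, likewise with no call. Mfap5 rose on day 3, with 34.0 and 80.1 against 1.69 to 20.1 in the controls and a log2 change of 2.48 (SE 0.69, adjusted p = 0.0138). On day 18 it was 50.0 and 48.5, a change of 2.40 (adjusted p = 0.059, not called).

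Among the 6 genes that process, assemble and crosslink collagen, Lox, Loxl2 and Dpt rose on day 3, Dpt rose on day 18, and Loxl2 and Pcolce fell on day 27. Of all genes, 24.9% rose on day 3, 5.42% rose on day 18 and 3.09% fell on day 27. Against day 18, all of Lox, Loxl2, Pcolce and Dpt were lower on day 27 (6.86% of all genes), while Loxl1 and Loxl3 were called in no comparison. Dpt encodes dermatopontin, a small protein that binds decorin and hastens collagen fibril formation. It lies on chromosome 1, 164796644 to 164824266. Dpt was 20.6 and 30.3 in the controls of day 3 and 21.1 and 21.3 in those of day 6. Dpt under PLX4032 was 79.0 and 188 on day 3, 37.6 and 29.2 on day 6, 162 and 104 on day 18, and 12.9, 12.5, 12.0 and 14.5 on day 27. Days 3 and 18 lay wholly above the controls and day 27 wholly below. The log2 change was 2.35 (SE 0.30, adjusted p = 0.000242) on day 3, 2.44 (SE 0.30, adjusted p = 0.000905) on day 18 and -0.78 (adjusted p = 0.0838, not called) on day 27, and from day 18 to day 27 it was -3.23 (SE 0.30, adjusted p = 9.58e-05).

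Pcolce encodes the enhancer of the enzyme that trims procollagen. It was 415 and 415 in the controls of day 3 and 306 and 425 in those of day 6. Pcolce under PLX4032 was 421 and 416 on day 3, 313 and 289.6 on day 6, 335 and 332 on day 18, and 223, 251, 260.1 and 213 on day 27. All 4 tumours of day 27 lay below every control. Pcolce fell on day 27 by -0.71 (SE 0.10, adjusted p = 0.00441), a call that was kept in all 20 alternatives, including the 3 pairings.

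Of the lysyl oxidases, Loxl3 was 188 and 154 in the controls of day 3 and 179 and 148 in those of day 6. Loxl3 under PLX4032 was 153 and 108 on day 3, 172 and 208 on day 6, 137 and 167 on day 18, and 181, 241, 182 and 231 on day 27. Each treated day overlapped with the controls, with 1 or 2 tumours outside their range. Loxl1 stayed between 112 and 161. Lox, the founding enzyme of the family, rose on day 3 (40.4 and 62.0 against 12.9 to 37.2, log2 change 1.07, SE 0.31, adjusted p = 0.0157). Loxl2 also rose on day 3 (54.4 and 63.9 against 31.3 to 48.3, log2 change 0.61, SE 0.18, adjusted p = 0.019). On day 27 Loxl2 was 22.6, 28.1, 17.6 and 19.0, below every control, with a change of -0.81 (SE 0.15, adjusted p = 0.011) that was lost in 1 of the 3 pairings. From day 18 to day 27 Loxl2 changed by -1.45 (SE 0.18, adjusted p = 0.000745) and Lox by -1.41 (SE 0.31, adjusted p = 0.0189). That call of Lox was lost in all 3 pairings.

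Among 9 matricellular genes, Tnxb, Postn and Thbs1 rose and Spp1 fell on day 3. These 4 of 9 are near the 45.8% of all genes that changed. On day 18 Tnxb and Tnc rose and Sparcl1 fell (7.92% of all genes changed), and on day 27 Thbs2 fell (6.67%). Tnxb encodes tenascin X, a connective tissue glycoprotein that regulates collagen deposition. It lies on chromosome 17, 34670535 to 34719815 on GRCm38. Tnxb was 0.706 and 0.566 in the controls of day 3 and 0.607 and 0.186 in those of day 6. Tnxb under PLX4032 was 7.90 and 17.1 on day 3, 1.38 and 0.691 on day 6, 16.3 and 13.7 on day 18, and 0.191, 0.128, 0.319 and 0.138 on day 27. Days 3 and 18 lay far above every control, and days 6 and 27 overlapped with them. The mean was 24.2 times that of the controls on day 3 and 29.1 times on day 18, on low control values. The log2 change was 3.08 (SE 0.26, adjusted p = 2.38e-05) on day 3 and 3.41 (SE 0.26, adjusted p = 3.8e-05) on day 18, and day 27 was lower than day 18 by -3.74 (SE 0.26, adjusted p = 1.35e-05). These calls were kept in all 19, 18 and 18 alternatives.

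Spp1 encodes osteopontin, a secreted phosphoprotein of bone, macrophages and many tumours, at chromosome 5, 104435118 to 104441050. Spp1 was 2217 and 5081 in the controls of day 3 and 1198 and 3592 in those of day 6. Spp1 under PLX4032 was 628 and 760.4 on day 3, 825 and 1064 on day 6, 1037 and 1127 on day 18, and 2193, 2430.3, 2624 and 2127 on day 27. All 6 tumours of days 3, 6 and 18 lay below every control, and day 27 lay within the controls' range. The fall on day 3 was called (-1.93, SE 0.40, adjusted p = 0.00268), while day 6 (-1.49, adjusted p = 0.0512) and day 18 (-1.29, adjusted p = 0.0694) were not. Days 18 and 27 exceeded days 3 and 6 by 0.98 (SE 0.30, adjusted p = 0.0248), a call lost in 8 of 22 alternatives, the 3 pairings among them.

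Sparc encodes a collagen-binding glycoprotein, also called osteonectin. It was 1581 and 1226 in the controls of day 3 and 1297 and 1166 in those of day 6. Sparc under PLX4032 was 1539 and 1881 on day 3, 1819 and 1402 on day 6, 1889 and 1718 on day 18, and 1305, 1189, 1348 and 1096 on day 27. Day 18 lay above every control, yet no treated day was called against the controls. The step from day 18 to day 27 was -0.55 (SE 0.16, adjusted p = 0.0494), and 12 of 18 alternatives did not call it. Its relative Sparcl1 went the other way: 205 in both tumours of day 18 against 343 to 586 in the controls, which is -1.17 on the log2 scale (SE 0.25, adjusted p = 0.0211), and 305 to 527 on day 27.

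Postn, for periostin, rose on day 3 to 1011 and 1105, against 147 to 541 in the controls (log2 change 1.60, SE 0.44, adjusted p = 0.0124). Thbs1, for thrombospondin 1, rose on day 3 (1.79, SE 0.54, adjusted p = 0.0193), where its tumours gave 28.7 and 130.1 against 6.51 to 27.4. Thbs2, for thrombospondin 2, was 38.9 to 42.4 on day 27 against 57.4 to 88.4 in the controls, a log2 change of -0.84 (SE 0.14, adjusted p = 0.00731) that none of the 3 pairings called. Tnc, for tenascin C, rose on day 18 (102 and 138, log2 change 1.25, SE 0.26, adjusted p = 0.0167). Its controls were split by day, with 108 and 112 on day 3 and 22.6 and 21.1 on day 6 (log2 difference -2.28, adjusted p = 0.17), so that day 18 overlapped with the controls of day 3. Tgfbi, a secreted protein induced by TGF-beta, was lower on days 18 and 27 than on days 3 and 6 (-0.55, SE 0.13, adjusted p = 0.00724).

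Of the surface and cytoplasmic markers of fibroblasts, S100a4, a calcium-binding protein also called fibroblast-specific protein 1, had the highest mean signal of the 38 genes and is also made by many tumour and immune cells. S100a4 was 3239 and 6170.4 in the controls of day 3 and 3361 and 6086 in those of day 6. S100a4 under PLX4032 was 1957 and 1246 on day 3, 2247 and 1564 on day 6, 1843 and 1587 on day 18, and 1650.2, 1629.5, 2352 and 1359.8 on day 27. All 10 treated tumours lay below all 4 controls. It fell by -1.53 (SE 0.34, adjusted p = 0.00399) on day 3, -1.39 (SE 0.34, adjusted p = 0.0322) on day 18 and -1.39 (SE 0.27, adjusted p = 0.0149) on day 27, and its day 6 change was -1.26 (adjusted p = 0.0518, not called). The day 27 call was lost in all 3 pairings.

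Pdpn encodes podoplanin, a mucin-type membrane glycoprotein of lymphatic vessels and reticular fibroblasts. It was 48.9 and 122 in the controls of day 3 and 50.3 and 80.8 in those of day 6. Pdpn under PLX4032 was 33.4 and 44.0 on day 3, 51.6 and 55.5 on day 6, 54.2 and 67.6 on day 18, and 63.3, 74.0, 68.5 and 69.1 on day 27. Day 3 lay below every control, with a log2 change of -0.86 (SE 0.30, adjusted p = 0.0366) that 8 of 19 alternatives did not call. Fap, for fibroblast activation protein, ranged from 6.19 to 24.0 with no call. Spp1 and S100a4 made up much of the genes' summed signal, which was 12643 to 17800 in the controls and 11662 to 11766 on day 3. Without them the sum was 6548 to 8136 in the controls and 9182 to 9655 on day 3.

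The start regions of 3 of these genes are shown because their levels moved in different ways: Tnxb (up on days 3 and 18), Ogn (up on day 3) and Spp1 (down on day 3). Each is the 250 bases upstream of the RefSeq transcription start on GRCm38.p6, plus strand. Tnxb is chr17:34670285-34670534, Ogn is chr13:49607765-49608014 and Spp1 is chr5:104434861-104435110. Capitals mark matches, on either strand, to the AP-1 motif TGANTCA (N for any base), the TEAD motif GGAATG, the core promoter element TATAAA or the SMAD motif CAGACA.
Tnxb: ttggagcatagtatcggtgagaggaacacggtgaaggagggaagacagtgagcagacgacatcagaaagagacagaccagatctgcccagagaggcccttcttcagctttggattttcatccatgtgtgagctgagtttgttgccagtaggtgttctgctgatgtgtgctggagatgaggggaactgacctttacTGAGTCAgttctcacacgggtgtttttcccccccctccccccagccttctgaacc
Ogn: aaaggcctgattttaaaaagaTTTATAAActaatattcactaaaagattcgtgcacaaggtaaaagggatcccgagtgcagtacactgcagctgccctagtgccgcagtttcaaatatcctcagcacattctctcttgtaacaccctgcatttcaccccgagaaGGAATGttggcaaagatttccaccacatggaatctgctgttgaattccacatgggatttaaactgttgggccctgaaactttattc
Spp1: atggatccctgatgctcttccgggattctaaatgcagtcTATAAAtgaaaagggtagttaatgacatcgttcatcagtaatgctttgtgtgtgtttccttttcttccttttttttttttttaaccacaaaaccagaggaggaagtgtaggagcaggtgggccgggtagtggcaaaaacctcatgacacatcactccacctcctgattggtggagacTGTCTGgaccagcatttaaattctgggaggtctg
Tnxb has a TGANTCA match 55 bases before the start. Ogn has a GGAATG match at 86 bases and a pair of overlapping TATAAA matches, 1 on each strand, at 229 and 227 bases. For Ogn the bases just after this RefSeq start were not found in the first part of a GENCODE M21 transcript, as they were for Tnxb and Spp1. The GENCODE gene begins at 49608046, so the Ogn distances hold for the RefSeq start only. Spp1 has TATAAA at 211 bases and CAGACA, on the reverse strand, at 34 bases. The RefSeq table held 24 of the 38 genes. TGANTCA was found in 2 of these 24 upstream windows (8.3%, Efemp1 and Tnxb) against 6.7% of all 32851, and GGAATG in 1 (4.2%) against 12.6%. TATAAA was found in 6 (25.0%: S100a4, Tnc, Spp1, Aspn, Ogn and Thbs2) against 12.4%, and CAGACA in 4 (16.7%: Spp1, Sparc, Fbln1 and Thbs2) against 17.1%. These are letter matches in a window and nothing was drawn from them about the factors.

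How firmly each call stood differed between genes. Of the 20 calls of day 3, those of Dcn, Ogn, Prelp, Fbln1, Fbln5, Fbn1, Dpt, Tnxb and Spp1 were kept in all 19 alternatives. Without the second treated tumour of day 3, the genes not called were Aspn, Vcan, Fbln2, Mfap5, Lox, Loxl2, Postn, Thbs1, Pdpn and S100a4. Against the day 3 controls alone, Lum, Vcan, Fbln2, Mfap5, Lox, Loxl2 and Thbs1 were not called. Fbn1 on day 6 was not called in 9 of 19 alternatives. Of the calls of day 18, those of Lum, Dpt and Tnxb were kept in all 18. Fbln1, Fbn1, Has2, Tnc, Sparcl1 and S100a4 were not called without the first tumour of day 18, and the last 5 of these also not without the second. Of the calls of day 27 only that of Pcolce was kept in all 20 alternatives, while those of Has2 and Eln were lost in 10 and 9, the 3 pairings among them. Late against early, Dcn, Fbln5, Pcolce and Spp1 were not called without the second tumour of day 18. From day 18 to day 27, Dcn, Dpt, Fbln1, Loxl2, Lum and Tnxb kept their calls in all 18 alternatives.

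Of 35 further matrix genes tested, 15 were higher and 5 lower on day 3, where 45.8% of all genes changed. On day 6, 0 were higher and 3 lower, where 5.92% of all genes changed. On day 18, 11 were higher and 2 lower (7.92% of all genes changed), and on day 27, 2 were higher and 8 lower (6.67%). From day 18 to day 27, 2 were higher and 12 lower (10.0%). The smallest p on day 3 were those of Fbln7 (log2 change 1.95), Emilin2 (1.50), Nid2 (1.08) and Srpx (1.62), and on day 18 those of Srpx (3.22), Svep1 (2.25), Nid2 (1.14) and Ccdc80 (2.12). Srpx was 16.4 and 21.4 on day 18, at most 8.01 in any other tumour, and at most 0.46 on day 27. Nid2, which encodes the basement membrane linker nidogen 2, was higher on day 27 too (1.20), where Crispld2 (-1.74), Loxl4 (-1.05) and Ecm1 (-1.20) were lower.

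Among 19 genes that build glycosaminoglycan chains, 4 were higher and 5 lower on day 3, a share near the 45.8% of all genes. Those with the smallest p were Dse, a dermatan sulphate epimerase, at 0.84, Xylt2, which starts the chains, at 0.92, Chst12 at 0.46 and Csgalnact1 at -0.74. On day 6, 1 was called (Csgalnact1, -0.76), on day 18, 1 was called (Chst12, 0.56) and on day 27, 2 (Ust, 0.47, and Dsel, 0.37). Of 10 hyaluronan genes beside Has2, 3 were higher and 2 lower on day 3, again near the share of all genes, and 2 were lower on day 6 (Cemip, -1.01, and Tmem2, -0.52). These included Tnfaip6 (2.28), which crosslinks hyaluronan, the hyaluronan receptors Lyve1 (2.04) and Stab1 (1.26), and Hmmr (-1.70), which is also a gene of dividing cells. On day 18, Lyve1 (3.30) and Tnfaip6 (1.87) were higher, and Cemip (-1.63) and Tmem2 (-0.73), both of hyaluronan breakdown, were lower.

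Markers of fibroblasts and of other cell types changed as well, not all of them on the same days or in the same direction as the matrix genes. Of 17 fibroblast identity genes 8 were higher and 3 lower on day 3 (45.8% of all genes changed), 1 and 2 on day 6, 6 and 0 on day 18, 1 and 1 on day 27, and 0 and 8 from day 18 to day 27. The shares of all genes that changed were 5.92% on day 6, 7.92% on day 18, 6.67% on day 27 and 10.0% from day 18 to day 27. Their summed signal was 4222 to 5170 in the controls, 6982 to 9630 on day 3, 5535 to 6178 on day 6, 6595 to 8188 on day 18 and 3802 to 4365 on day 27. Clec3b, a marker of universal fibroblasts, had a log2 change of 4.48 on day 3 and 4.33 on day 18, and Pi16, another, of 3.15 and 3.44. Both are examples that went up. Of the 17 log2 changes, 11 were positive and 6 negative on day 3, and 11 and 6 on day 18. Clec3b was 33.0 and 84.2 on day 3, 56.6 and 39.7 on day 18, and at most 4.26 in the other tumours.

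Adipocyte transcripts were high in both tumours of day 18. All 11 adipocyte genes tested were higher on that day, where 5.42% of all genes were higher. Their summed signal was 3241 to 3366, against 25.4 to 85.7 in the controls, 139 to 192 on day 3 and 20.5 to 31.0 on day 27. Adipoq was 110.9 and 142.4 on day 18 and at most 6.40 elsewhere. The muscle sum was 885 to 992 on day 3, 47.5 to 358 in the controls and 12.1 to 36.7 on day 27, and on day 18 it was 53.1 in the first tumour and 2028 in the second.

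On day 3 the macrophage sum was 9087 to 14002, against 873 to 2656 in the controls, with 9 of 10 genes higher (24.9% of all genes). The T cell sum was 207 to 353 against 22.3 to 43.4, with 10 of 10 higher. The endothelial sum was 231 to 333 against 92.8 to 209 and the pericyte sum 522 to 683 against 141 to 270. On day 6 the macrophage sum was 3049 to 4625 and the T cell sum 106 to 369, with 1 and 9 of 10 genes higher (4.49% of all genes). On day 18 these sums were 2377 to 3830 and 57.9 to 139, with 0 of 10 genes higher in each list (5.42% of all genes). On day 27 the macrophage sum was 982 to 2001, and that of T cells was 23.9 to 36.8. On that day 2 of 10 endothelial and 3 of 9 pericyte genes were higher (3.58% of all genes). Of 10 keratinocyte genes 3 were listed, not Krt5 or Krt14, with a sum of 11.3 to 34.8. The part that adipose, muscle, immune and vessel cells have in the matrix changes was not tested.

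**Figure D4:**
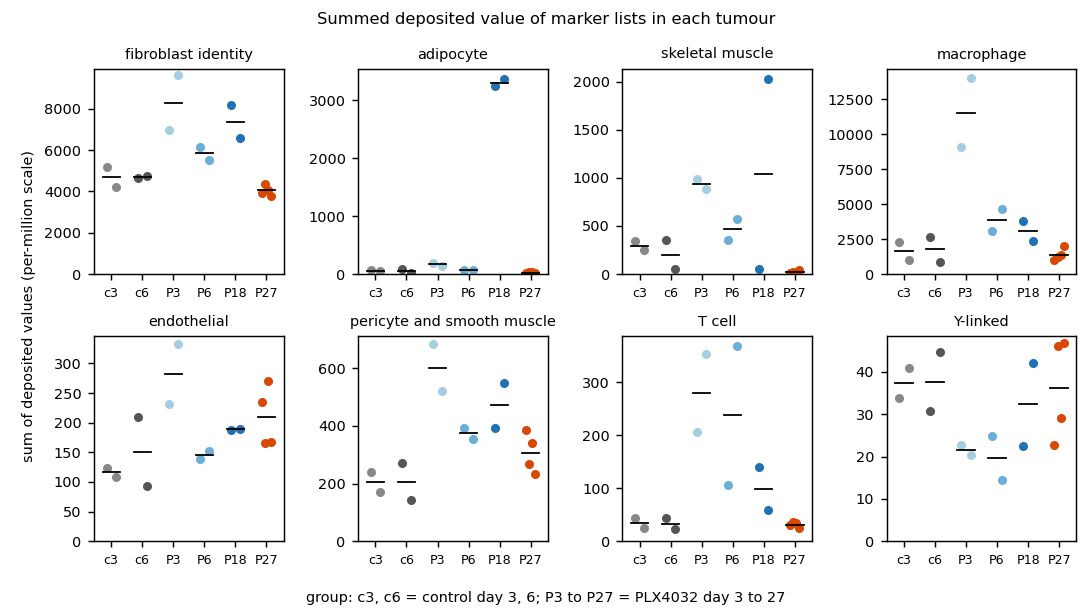
Summed deposited signal of 8 marker lists in each of the 14 tumours (points) with group means (lines); c3 and c6 are controls and P3 to P27 treated tumours by day. The mean fibroblast sum is highest on days 3 and 18 and lowest on day 27, the adipocyte sum is high in both tumours of day 18 (3241 and 3366), and the muscle sum is high in 1 of them (2028).

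Some of these genes share exon bases with another annotated gene: 17 of the 38 do, 13 of them over 100 bases or more. Strand use in counting is not stated in these sources, so their values may hold reads of a partner on the opposite strand. Spp1, S100a4 and Pcolce each have a partner on the same strand, whose reads strand use would not set apart. Besides Fbn1, the larger overlaps were Loxl3 with Htra2 (535 bases), Prelp with Gm15851 (350), Spp1 with Gm42793 (309) and S100a4 with Gm42674 (302).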

How the data were processed

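RNA of whole frozen tumours was extracted with Trizol and sequenced with Illumina TruSeq RNA libraries, per the labels' protocols. Per the submitters' processing notes, kallisto, sleuth and the mm10 build were used. Versions, strand use and any rescaling are not given in the sources used here, however. The signal the authors deposited, 1 value per symbol and tumour, is called TPM; since 5 of 14 column totals exceed 1000000, its values were treated as a rescaled signal. Counts are not recoverable, so depth per sample is unknown. Of the symbols, 17859 (96.6%) were matched to a mouse gene name table, and coordinates are from GENCODE M21 on GRCm38. Columns give a tumour's group but not its animal, and their numbers only name tumours. Where nothing says that 2 tumours came from separate mice, p-values measure only the spread between these tumours, which may be partly technical. The planned averaging of day 27 tumours by mouse was therefore run as 3 possible pairings.

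Genes reaching 1 in at least 2 tumours were tested on log2(value + 1) with limma 3.58.1 in R 4.3.3 (6 group means, eBayes with trend, 8 residual df). Tests were 2-sided and p-values were adjusted by Benjamini-Hochberg across every gene tested. Treated days were set against the mean of the control groups. The fit was tested on simulated data. Values in every tumour are given, per role, for the 2 genes with the highest mean and the 2 with the smallest adjusted p, and up to 4 genes with the smallest p per other list; Srpx, Clec3b, Adipoq, Ecm2, Omd and the exon overlaps were picked after their values were seen. The genes and lists were chosen with earlier results of these data known.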

Additional observations from a re-analysis of the deposited data

Results flagged for a closer look

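Among the day 27 tumours, 1 value of Fbln2 (3.08) stood apart from the other 3 (9.46 to 10.4), with a gap of 0.914 of the group's range. Such gaps were screened in 38 genes, and chance gives about 1 in 20.

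Genes that differed between late (days 18 and 27) and early (days 3 and 6) treated tumours were, as log2 changes, Bgn (0.84), Eln (1.38) and Spp1 (0.98) on the higher side, and Dcn (-0.69), Fbln5 (-1.03), Loxl2 (-0.63), Ogn (-2.16), Pcolce (-0.34) and Tgfbi (-0.55) on the lower side. Each side is an average of 2 days, and some calls do not hold for day 18. Loxl2 had a mean of 59.2 on day 3, 53.8 on day 6, 60.3 on day 18 and 21.8 on day 27. The day 18 mean exceeded that of day 6 for Dcn (421 against 224) and Pcolce (333 against 301). For Ogn these 2 means were close (25.5 and 27.3).

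From day 18 to day 27 the log2 change was called for Tnxb (-3.74), Fbln1 (-3.74), Fbln2 (-3.69), Lum (-3.30), Dpt (-3.23), Prelp (-2.29), Dcn (-1.89), Loxl2 (-1.45), Lox (-1.41), Fmod (-1.25), Tnc (-0.95), Thbs2 (-0.64), Sparc (-0.55) and Pcolce (-0.50), all lower on day 27, and for Sparcl1 (0.94), which was higher. In each of the 3 pairings of the day 27 tumours the calls of Lox, Fmod, Tnc, Thbs2, Sparc, Pcolce and Sparcl1 were lost.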

How the results depend on the processing

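No paired analysis was possible because the columns carry no animal numbers. No called change of the 38 genes reversed under any alternative. Leaving out 1 tumour, the number of genes called was 10 to 22 on day 3 (20 with all), 0 to 8 on day 6 (1), 4 to 15 on day 18 (10), 7 to 11 on day 27 (10), 5 to 10 late against early (9), 0 between the controls (0) and 7 to 13 from day 18 to day 27 (15). The day 3 count was 13 against the day 3 controls alone. The day 6 count was 4 with a filter at 5, 3 with median-of-ratios rescaling, 3 with quantile normalisation, 2 with sample weights, and 0 with the compared groups alone, with the day 6 controls alone and in each of the 3 pairings. The day 18 count was 16 with sample weights and 4 with the compared groups alone. Averaging the day 27 tumours left 1, 2 and 2 genes on day 27 and 8, 8 and 8 from day 18 to day 27. Through the shared spread it also touched day 3, where the count was 18 in each pairing. Averaging leaves fewer samples; for the other settings the cause was not tested. Quantile normalisation moved the median of all genes on day 3 from 0.02 to -0.15 and took the share of higher calls among all genes from 54.4% to 38.9%. On day 18 that share went from 68.4% to 44.9% (56.5% with median-of-ratios), on day 6 from 75.9% to 60.4%, and from day 18 to day 27 from 31.7% to 59.1%. A group of 2 reduced to 1 tumour was assumed to vary like the other groups. With 2 tumours in most groups and unknown depth, changes that were not called cannot be read as absent.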
